A study of Homo sapiens with 9 samples.

Results

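The mitochondrial protein import machinery was followed as 36 genes, taken by their symbols from the GENCODE rows of a count table of 112171 features. They comprise receptors and channels of both mitochondrial membranes, chaperones of the intermembrane space, the import motor, and the peptidases that trim imported precursors. Enough counts for a test were found for 35 of them, among 22353 features tested in all. TOMM6, a small subunit of the outer membrane channel, had 0 counts in all 9 libraries and was not tested. In GENCODE v29 TOMM6 overlaps the coding genes AL365205.1 on the same strand and USP49 on the opposite strand. TOMM5, SAMM50 and TIMM13 also overlap a coding gene on the same strand there, and these had counts. The 0 counts of TOMM6 do not show that it is not expressed, and the reason for them was not tested.

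Total RNA was sequenced from PANC-1, an established human cell line from a pancreatic carcinoma, after 12 h under hypoxia. The medium held rakicidin A at 42 nM, BE-43547A1 at 41 nM or the solvent DMSO at 0.04%, with 3 libraries in each group. Rakicidin A is a cyclic lipodepsipeptide of bacterial origin. All 3 groups were hypoxic and no group was kept in normal oxygen, so each comparison was made within hypoxia. How much DMSO went in with a compound is not stated in the labels. Separate cultures are not stated for the replicates either, so the p-values reflect variation among libraries that may be purely technical. Counts on features ran from 26203326 to 34870860 per library with rakicidin A, from 39807220 to 45048999 with BE-43547A1 and from 27696394 to 30596594 with DMSO. Levels are given as counts scaled to library size (CPM). The 5 epithelial markers summed to 2414 to 2529 CPM with rakicidin A, 3356 to 3620 CPM with BE-43547A1 and 2829 to 3030 CPM with DMSO, nearly all of it from the keratins KRT8, KRT18 and KRT19, while KRT7 (4.67 to 6.87 CPM) and the cadherin CDH1 (4.51 to 8.28 CPM) were low. The 4 leukocyte markers summed to 1.60 to 2.06 CPM with rakicidin A, 2.77 to 3.46 CPM with BE-43547A1 and 1.53 to 1.82 CPM with DMSO, mostly from ITGAM, with PTPRC at or below 0.0741 CPM and CD3E at 0. The 4 stromal markers summed to 5.71 to 6.92 CPM with rakicidin A, 7.01 to 8.60 CPM with BE-43547A1 and 9.07 to 13.4 CPM with DMSO. Markers of endothelium, acini and islets (6 genes) were at or below 0.247 CPM in every library, with INS at 0. With rakicidin A against DMSO, 3 of the 5 epithelial markers and 2 of 3 stromal markers tested were lower, and neither of the leukocyte markers tested, CD14 and ITGAM, passed. With BE-43547A1 against DMSO, 3 epithelial markers were higher and 1 lower, CD14 and ITGAM were higher, and 1 stromal marker was lower. The part of these markers in the results was not tested. DMSO replicate 3 stood apart from its group, with the nuclear RNA MALAT1 at 8879 CPM against 4924 and 5003 CPM, and with mitochondrially encoded transcripts at 0.520% of counts against 0.287% and 0.334%. MALAT1 also differed between the groups, at 6658 to 7287 CPM with rakicidin A and 10369 to 11691 CPM with BE-43547A1. The part of this difference in the results was not tested.

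Nearly all mitochondrial proteins are made in the cytosol and enter through the translocase of the outer membrane, the TOM complex. Precursors with a cleavable presequence then pass the TIM23 complex, drawn inward by a motor built on the mitochondrial Hsp70, HSPA9. Carrier proteins are led by small TIM chaperones to the TIM22 complex, barrel proteins go to the SAM complex, and small cysteine-rich proteins are trapped in the intermembrane space by a disulfide relay. Loss of import is sensed by the cell in part through the precursors that stay in the cytosol.

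The promoters of the 8 genes with a log2 change of at least 1 in a comparison are shown, because 5 transcription factor motifs were searched in them. Each is the 250 bases before the gene's start in RefSeq (GRCh38.p14), read 5′ to 3′ on the gene's strand, with a motif match in capitals. RefSeq lists TOMM70A as TOMM70.
TIMM44, chr19:7943667-7943916, minus strand: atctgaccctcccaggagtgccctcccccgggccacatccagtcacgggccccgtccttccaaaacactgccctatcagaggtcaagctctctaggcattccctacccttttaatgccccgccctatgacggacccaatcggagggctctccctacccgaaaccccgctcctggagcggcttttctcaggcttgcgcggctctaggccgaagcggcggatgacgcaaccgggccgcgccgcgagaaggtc
TIMM17A, chr1:201955253-201955502, plus strand: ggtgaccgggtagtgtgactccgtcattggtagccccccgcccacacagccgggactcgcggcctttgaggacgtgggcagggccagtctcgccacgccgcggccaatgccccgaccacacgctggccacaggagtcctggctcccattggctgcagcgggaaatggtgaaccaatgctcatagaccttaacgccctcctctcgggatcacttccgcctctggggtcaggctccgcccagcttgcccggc
GRPEL2, chr5:149345249-149345498, plus strand: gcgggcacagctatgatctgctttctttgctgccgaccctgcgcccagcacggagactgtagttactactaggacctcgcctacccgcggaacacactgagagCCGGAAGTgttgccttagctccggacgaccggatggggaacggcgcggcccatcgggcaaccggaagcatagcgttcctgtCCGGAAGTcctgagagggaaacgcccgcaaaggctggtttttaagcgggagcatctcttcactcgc
TOMM70A, chr3:100401090-100401339, minus strand: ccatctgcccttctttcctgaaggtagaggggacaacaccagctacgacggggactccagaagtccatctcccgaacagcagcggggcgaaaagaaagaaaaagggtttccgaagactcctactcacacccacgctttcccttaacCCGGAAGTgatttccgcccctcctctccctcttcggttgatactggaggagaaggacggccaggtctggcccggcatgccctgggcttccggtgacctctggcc
TIMM8A, chrX:101348743-101348992, minus strand: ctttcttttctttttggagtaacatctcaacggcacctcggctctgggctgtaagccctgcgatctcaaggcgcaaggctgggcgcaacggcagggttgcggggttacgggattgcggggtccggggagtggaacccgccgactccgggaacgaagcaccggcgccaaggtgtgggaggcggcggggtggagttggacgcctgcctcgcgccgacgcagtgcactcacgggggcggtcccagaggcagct
CHCHD4, chr3:14124871-14125120, minus strand: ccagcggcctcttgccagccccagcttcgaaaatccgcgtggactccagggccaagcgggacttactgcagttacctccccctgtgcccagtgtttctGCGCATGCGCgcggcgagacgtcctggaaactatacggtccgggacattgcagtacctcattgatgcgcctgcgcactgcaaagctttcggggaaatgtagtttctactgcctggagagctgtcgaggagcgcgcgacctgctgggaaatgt
TOMM40L, chr1:161225810-161226059, plus strand: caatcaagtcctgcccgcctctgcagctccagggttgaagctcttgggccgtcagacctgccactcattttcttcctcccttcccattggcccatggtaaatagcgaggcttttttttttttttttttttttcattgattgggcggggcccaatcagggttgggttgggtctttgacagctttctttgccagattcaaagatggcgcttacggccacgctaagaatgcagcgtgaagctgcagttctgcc
TIMM21, chr18:74148273-74148522, plus strand: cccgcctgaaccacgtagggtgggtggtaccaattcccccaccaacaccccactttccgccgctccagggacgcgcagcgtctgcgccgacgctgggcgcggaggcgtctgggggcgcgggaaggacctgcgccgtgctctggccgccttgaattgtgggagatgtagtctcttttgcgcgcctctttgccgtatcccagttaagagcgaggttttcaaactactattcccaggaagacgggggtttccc
GRPEL2 and TOMM70A carry CCGGAAGT, the motif of ETS factors such as GABP, and CHCHD4 carries GCGCATGC, the core of NRF1 sites, as overlapping matches on both strands. The other 5 windows hold no match.

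Both strands were searched, and 33 of the 36 genes had a RefSeq promoter. CCGGAAGT was present in 6 of the 33, those of TOMM6, TOMM20, TOMM70A, TIMM10, GRPEL2 and TIMMDC1, and in 3.64% of all 27305 promoters. GCGCATGC was present in TOMM7, CHCHD4 and TIMM9, and in 2.81% of all promoters. TGATGNAA, the core of amino acid response elements bound by C/EBP and ATF factors, was present in TIMM22 and PMPCB, and in 3.19% of all promoters. The E-box CACGTG was present in TOMM20 and in 6.49% of all promoters, and the cyclic AMP response element TGACGTCA was present in 0 of the 33 and in 1.77% of all. These matches describe the letters in the windows only. Among the genes with CCGGAAGT, and among those with GCGCATGC, some were higher and others lower with rakicidin A than with DMSO.

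With rakicidin A the import genes split. TIMM44 and TIMM17A rose more than 3.6-fold over DMSO and GRPEL2 rose 2.99-fold, while TOMM40L and TIMM8A fell more than 2.1-fold. Of the 35 genes tested, 12 were higher and 15 lower than in DMSO by edgeR's quasi-likelihood test at a Benjamini-Hochberg adjusted p below 0.05, and 8 did not pass. These calls made up 77.1% of the genes, against 64.7% of all features tested (31.9% higher, 32.7% lower) and 75.3% of the 11460 features at least as abundant as the lowest import gene tested. The median log2 fold change was -0.08 over the 35 genes and -0.02 over all features. In 12 genes all rakicidin A libraries lay above all DMSO libraries and in 14 all lay below, where 67.5% of all features showed no overlap in either direction.

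With BE-43547A1 more import genes were lower than higher. TIMM17A and TIMM44 rose more than 2.5-fold over DMSO, and TIMM8A, CHCHD4 and TIMM21 fell more than 2-fold. In all 7 genes were higher, 19 lower and 9 did not pass, 74.3% called against 70.4% of all features (35.3% higher, 35.1% lower) and 76.6% of those at least as abundant. The median log2 fold change was -0.19 over the 35 genes and -0.00026 over all features. All BE-43547A1 libraries lay above all DMSO libraries in 9 genes and below them in 19, where 71.6% of all features showed no overlap. Both comparisons share the DMSO libraries.

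The direction of small changes depends on how libraries are scaled. With total counts alone in place of TMM factors, the median of all features moved to -0.38 for rakicidin A and -0.24 for BE-43547A1, and to -0.14 for rakicidin A against BE-43547A1. The split then became 6 higher and 22 lower for rakicidin A against DMSO, 5 higher and 25 lower for BE-43547A1 against DMSO, and 12 higher and 6 lower for rakicidin A against BE-43547A1. Of all features, the same scaling called 20.0% higher and 51.0% lower for rakicidin A against DMSO, 26.6% higher and 46.7% lower for BE-43547A1 against DMSO, and 17.6% higher and 30.7% lower for rakicidin A against BE-43547A1. Without DMSO replicate 3 the split was 13 higher and 17 lower for rakicidin A, 7 higher and 18 lower for BE-43547A1, and 17 higher and 2 lower for rakicidin A against BE-43547A1. All values are relative to the library and hold no measure of cell number or of RNA per cell. Which scaling is nearer to the amounts per cell cannot be settled from them. As a share of the counts on features, the 36 genes took 0.289 to 0.294% with rakicidin A, 0.249 to 0.258% with BE-43547A1 and 0.293 to 0.309% with DMSO.

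**Figure D1:**
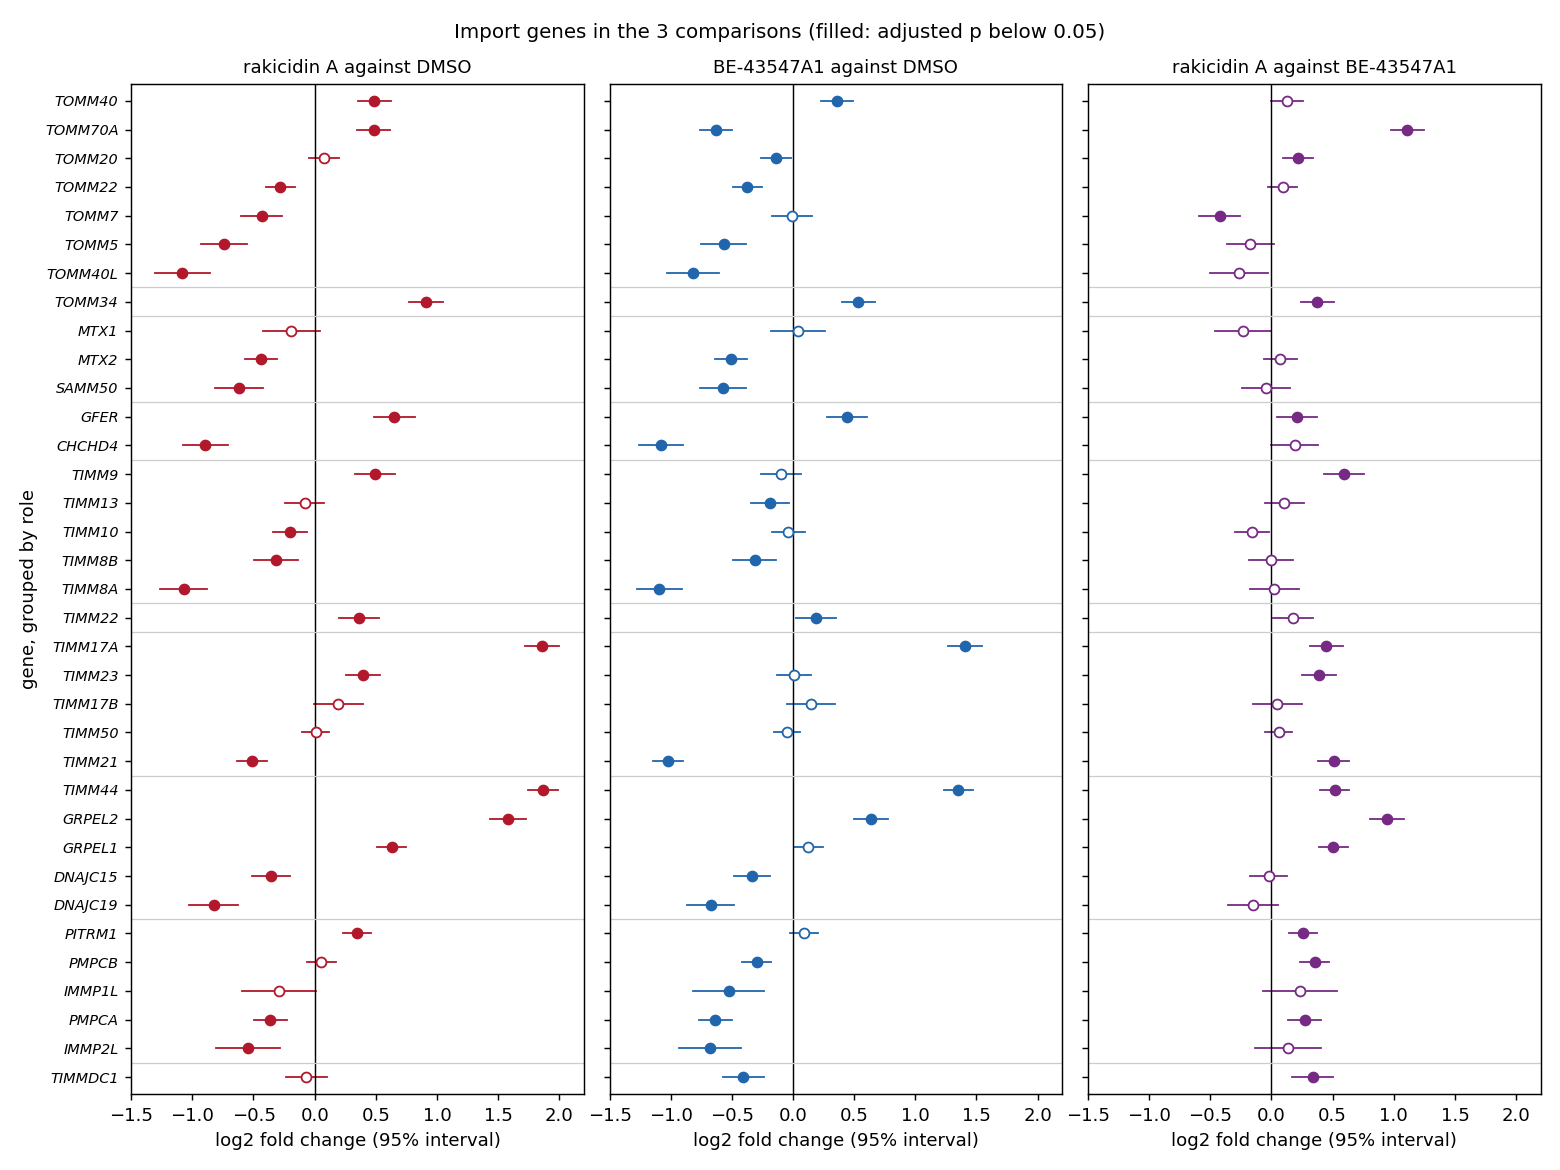
Log2 fold changes of the 35 import genes tested (x axis, with 95% intervals), grouped by role down the page, in the 3 comparisons, filled where the edgeR adjusted p was below 0.05. TIMM44, TIMM17A and GRPEL2 lie far to the right of 0 against DMSO, TOMM70A lies right of 0 for rakicidin A and left of 0 for BE-43547A1, and 15 of the genes are higher with rakicidin A than with BE-43547A1 while TOMM7 is lower.

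In the import motor TIMM44 and both exchange factors were higher with rakicidin A, and both J-proteins were lower. TIMM44, which tethers HSPA9 to the inner membrane channel, had 182, 169 and 169 CPM with rakicidin A, 116, 120.0 and 127 CPM with BE-43547A1, and 46.9, 47.5 and 48.0 CPM with DMSO. The 3 groups did not overlap, and the means were 173 ± 7.81 CPM with rakicidin A, 121 ± 5.83 CPM with BE-43547A1 and 47.4 ± 0.556 CPM with DMSO (SD, n = 3 each). TIMM44 rose by 1.87 ± 0.06 on the log2 scale with rakicidin A (± SE, edgeR adjusted p = 2.65e-15) and by 1.35 ± 0.06 with BE-43547A1 (adjusted p = 2.55e-13).

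GRPEL2, a nucleotide exchange factor that releases substrates from HSPA9, had 231, 232 and 238 CPM with rakicidin A, 119, 113 and 133 CPM with BE-43547A1, and 85.3, 74.6 and 74.4 CPM with DMSO. It rose by 1.58 ± 0.07 on the log2 scale with rakicidin A (edgeR adjusted p = 3.17e-13) and by 0.64 ± 0.07 with BE-43547A1 (adjusted p = 1.19e-07). Its paralog GRPEL1, the other exchange factor, had 118, 115 and 119 CPM with rakicidin A, 82.9, 80.9 and 84.2 CPM with BE-43547A1, and 77.4, 80.0 and 70.2 CPM with DMSO. GRPEL1 rose by 0.63 ± 0.06 with rakicidin A (adjusted p = 1.66e-08). With BE-43547A1 it gave 0.12 (adjusted p = 0.0602) with no overlap between the groups, and passed without DMSO replicate 2 (0.16, adjusted p = 0.0355) and with GENCODE rows only. With total counts alone GRPEL1 turned to -0.11.

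The J-proteins of the motor, which stimulate HSPA9, went the other way. DNAJC19 had 11.1, 9.37 and 9.45 CPM with rakicidin A, 11.1, 10.7 and 11.4 CPM with BE-43547A1, and 19.6, 17.5 and 16.0 CPM with DMSO. It fell by 0.82 ± 0.10 on the log2 scale with rakicidin A (edgeR adjusted p = 4.40e-07) and by 0.67 ± 0.09 with BE-43547A1 (adjusted p = 2.80e-06). Named pseudogenes of DNAJC19 drew reads as well, DNAJC19P9 as many as 46.1% of the gene's own count, so its level is uncertain. DNAJC15, at 29.4, 28.7 and 30.7 CPM with rakicidin A, 28.2, 31.0 and 31.0 CPM with BE-43547A1, and 39.6, 40.1 and 34.1 CPM with DMSO, fell by 0.36 with rakicidin A and by 0.34 with BE-43547A1.

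**Figure D2:**
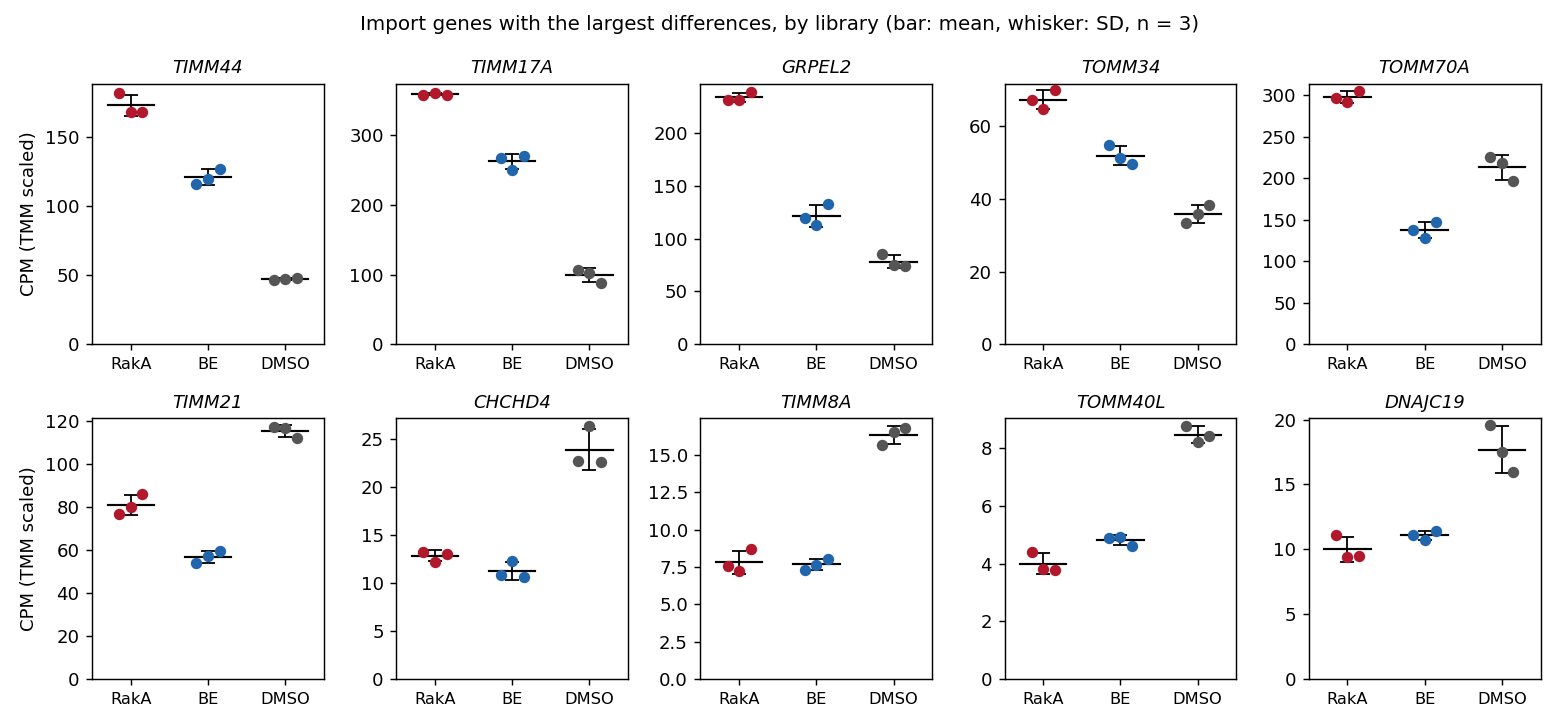
TMM-scaled CPM (y axis, from 0) of the 10 import genes that passed with a log2 change of at least 0.8 in a comparison, in the 3 libraries each of rakicidin A (RakA), BE-43547A1 (BE) and DMSO, with points for libraries, bars for means and whiskers for SD. TIMM44, TIMM17A, GRPEL2 and TOMM34 step down through the groups as drawn, while TOMM70A with BE-43547A1 lies below DMSO.

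In the TIM23 complex the channel subunit TIMM17A rose and its paralog did not pass. TIMM17A had 358, 361 and 358 CPM with rakicidin A, 267, 251 and 270.4 CPM with BE-43547A1, and 107, 102 and 88.1 CPM with DMSO. It rose by 1.86 ± 0.07 on the log2 scale with rakicidin A (edgeR adjusted p = 2.03e-14) and by 1.41 ± 0.07 with BE-43547A1 (adjusted p = 1.06e-12). TIMM17B, the alternative subunit, had 18.5, 15.3 and 16.3 CPM with rakicidin A, 17.5, 15.0 and 15.8 CPM with BE-43547A1, and 13.4, 14.1 and 16.3 CPM with DMSO, and all groups overlapped. Its log2 fold changes were 0.19 with rakicidin A (adjusted p = 0.0873) and 0.14 with BE-43547A1 (adjusted p = 0.176). DMSO replicate 3 was its highest DMSO library, and with that one left out TIMM17B passed with rakicidin A (0.28, adjusted p = 0.0139) and with BE-43547A1 (0.22, adjusted p = 0.0365), and it passed with rakicidin A without rakicidin A replicate 2 (0.27, adjusted p = 0.0398).

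TIMM21, which links the TIM23 complex to the outer membrane and to respiratory chain assembly, fell with both compounds. It had 76.7, 79.9 and 86.1 CPM with rakicidin A, 53.8, 57.3 and 59.3 CPM with BE-43547A1, and 117, 117 and 112 CPM with DMSO, with no overlap among the groups. The fall was 0.51 ± 0.06 on the log2 scale with rakicidin A (edgeR adjusted p = 3.90e-07) and 1.02 ± 0.06 with BE-43547A1 (adjusted p = 2.36e-11). TIMM23, another channel subunit, rose by 0.40 with rakicidin A, a call lost with total counts alone (0.037, adjusted p = 0.637), and gave 0.0076 with BE-43547A1. TIMM50, the receptor that takes presequences over from the outer membrane, had 780.0, 842 and 787 CPM with rakicidin A, 785, 764 and 763 CPM with BE-43547A1, and 785, 823 and 787 CPM with DMSO, and passed in no comparison. With the libraries scaled by total counts alone TIMM50 fell by 0.35 with rakicidin A (adjusted p = 7.13e-06) and by 0.29 with BE-43547A1 (adjusted p = 5.79e-05).

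At the outer membrane, TOMM70A was the gene called in opposite directions. This receptor takes carrier precursors from cytosolic chaperones. It had 297, 292 and 305 CPM with rakicidin A, 138, 129 and 148 CPM with BE-43547A1, and 225, 218 and 197 CPM with DMSO, and the 3 groups did not overlap. It rose by 0.48 ± 0.06 on the log2 scale with rakicidin A (edgeR adjusted p = 2.10e-06), a call lost with total counts alone (0.12, adjusted p = 0.0785). It fell by 0.63 ± 0.06 with BE-43547A1 (adjusted p = 5.92e-08).

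TOMM40, the pore of the TOM complex, and TOMM40L, its paralog, moved apart. TOMM40L had 4.40, 3.80 and 3.78 CPM with rakicidin A, 4.88, 4.92 and 4.60 CPM with BE-43547A1, and 8.77, 8.21 and 8.41 CPM with DMSO. It fell by 1.08 ± 0.11 on the log2 scale with rakicidin A (edgeR adjusted p = 5.86e-08) and by 0.82 ± 0.10 with BE-43547A1 (adjusted p = 8.11e-07). TOMM40 had 72.5, 63.7 and 65.8 CPM with rakicidin A, 62.9, 60.9 and 60.9 CPM with BE-43547A1, and 47.6, 50.6 and 45.7 CPM with DMSO. It rose by 0.49 with rakicidin A and by 0.36 with BE-43547A1, and neither call held with total counts alone (0.13 with rakicidin A, 0.12 with BE-43547A1).

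Among the other TOM subunits, the presequence receptor TOMM22 fell by 0.28 on the log2 scale with rakicidin A and by 0.37 with BE-43547A1, and the small subunit TOMM5 fell by 0.74 with rakicidin A and by 0.57 with BE-43547A1. TOMM7, another small subunit, fell by 0.43 with rakicidin A and gave -0.0088 with BE-43547A1. TOMM20, the other presequence receptor, gave 0.08 with rakicidin A and fell by 0.14 with BE-43547A1 (edgeR adjusted p = 0.0408), a call that 13 of 17 alternatives ended, among them leaving out any library but DMSO replicate 2. TOMM34, a cytosolic cochaperone that binds Hsp70 and Hsp90, had 67.3, 64.9 and 69.98 CPM with rakicidin A, 54.8, 51.4 and 49.6 CPM with BE-43547A1, and 33.5, 35.8 and 38.3 CPM with DMSO. TOMM34 rose by 0.91 ± 0.06 with rakicidin A (adjusted p = 4.88e-10) and by 0.53 ± 0.06 with BE-43547A1 (adjusted p = 6.23e-07).

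In the SAM complex, SAMM50, which folds barrel proteins into the outer membrane, fell by 0.62 on the log2 scale with rakicidin A and by 0.57 with BE-43547A1. Its partner MTX2 fell by 0.44 with rakicidin A and by 0.51 with BE-43547A1. MTX1 gave -0.19 with rakicidin A and 0.04 with BE-43547A1 and passed in neither, but fell by 0.29 with rakicidin A without DMSO replicate 1 (edgeR adjusted p = 0.0265).

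The disulfide relay of the intermembrane space split between its enzymes. CHCHD4, the oxidoreductase that traps cysteine-rich precursors, had 13.3, 12.2 and 13.1 CPM with rakicidin A, 10.8, 12.4 and 10.7 CPM with BE-43547A1, and 22.7, 26.4 and 22.6 CPM with DMSO. It fell by 0.89 ± 0.09 on the log2 scale with rakicidin A (edgeR adjusted p = 4.59e-08) and by 1.08 ± 0.09 with BE-43547A1 (adjusted p = 2.07e-09). GFER, which reoxidises CHCHD4, rose by 0.65 with rakicidin A and by 0.44 with BE-43547A1.

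Small TIM chaperones, which are themselves substrates of that relay, fell in 3 of 5 cases with each compound, where 32.7% of all features fell with rakicidin A and 35.1% with BE-43547A1. TIMM8A had 7.53, 7.23 and 8.68 CPM with rakicidin A, 7.31, 7.63 and 8.05 CPM with BE-43547A1, and 15.7, 16.6 and 16.8 CPM with DMSO. It fell by 1.07 ± 0.09 on the log2 scale with rakicidin A (edgeR adjusted p = 7.18e-09) and by 1.09 ± 0.09 with BE-43547A1 (adjusted p = 2.74e-09). Its paralog TIMM8B fell by 0.31 with each compound, at 28.8, 28.3 and 32.3 CPM with rakicidin A, 30.1, 28.1 and 31.2 CPM with BE-43547A1, and 40.0, 39.4 and 31.7 CPM with DMSO, where replicate 3 was the low library and overlapped with rakicidin A. TIMM9, a carrier chaperone, rose by 0.50 with rakicidin A, a call lost with total counts alone (0.14, adjusted p = 0.120), and gave -0.10 with BE-43547A1. TIMM10, its partner, fell by 0.20 with rakicidin A (adjusted p = 0.0126, but 0.0647 without DMSO replicate 1 and 0.0877 without rakicidin A replicate 1) and gave -0.04 with BE-43547A1. TIMM13, the partner of TIMM8A, gave -0.08 with rakicidin A and fell by 0.19 with BE-43547A1 (adjusted p = 0.0309), lost without BE-43547A1 replicate 1 (0.153) or 3 (0.0856) or DMSO replicate 1 (0.0687). That call of TIMM13 was also lost with no filter on low counts and with GENCODE rows only. TIMM22, the carrier channel of the inner membrane, rose by 0.36 with rakicidin A and by 0.19 with BE-43547A1 (adjusted p = 0.0377). The call of TIMM22 with rakicidin A was lost with total counts alone (0.0064), and that with BE-43547A1 without any 1 of the DMSO libraries or without BE-43547A1 replicate 1 or 2 (adjusted p = 0.0529 to 0.115). The latter was also lost with no filter on low counts and with DESeq2, and turned to -0.049 with total counts alone.

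Of the 5 peptidase genes, 2 were lower and 1 higher with rakicidin A, where 32.7% of all features were lower and 31.9% higher. With BE-43547A1, 4 were lower and 0 higher, where 35.1% of all features were lower and 35.3% higher. PMPCA, the substrate-binding subunit of the presequence peptidase, fell by 0.36 on the log2 scale with rakicidin A and by 0.63 with BE-43547A1. The catalytic subunit PMPCB gave 0.06 with rakicidin A and fell by 0.30 with BE-43547A1. IMMP2L of the inner membrane peptidase fell by 0.54 with rakicidin A and by 0.68 with BE-43547A1. IMMP1L, its partner, gave -0.29 with rakicidin A, passing without DMSO replicate 3 (-0.42, edgeR adjusted p = 0.0137), and fell by 0.53 with BE-43547A1. PITRM1, which degrades cleaved presequences, rose by 0.35 with rakicidin A, turning to -0.012 with total counts alone. With BE-43547A1 PITRM1 gave 0.09, passing as higher with GENCODE rows only. TIMMDC1, a TIMM family protein of complex I assembly, gave -0.07 with rakicidin A, passing without DMSO replicate 3 (-0.18, edgeR adjusted p = 0.00496), and fell by 0.41 with BE-43547A1.

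Paralogs were also compared as count ratios within a library, which no scaling of libraries can change. TIMM17A had 19.4, 23.5 and 22.0 counts per TIMM17B count with rakicidin A, 15.2, 16.7 and 17.1 with BE-43547A1, and 8.01, 7.25 and 5.42 with DMSO. TOMM40 had 16.5, 16.7 and 17.4 counts per TOMM40L count with rakicidin A, 12.9, 12.4 and 13.2 with BE-43547A1, and 5.43, 6.16 and 5.43 with DMSO. In both pairs the groups did not overlap.

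GRPEL1 had 0.511, 0.498 and 0.497 counts per GRPEL2 count with rakicidin A, 0.696, 0.719 and 0.634 with BE-43547A1, and 0.907, 1.07 and 0.942 with DMSO. TIMM8A had 0.261, 0.255 and 0.269 counts per TIMM8B count with rakicidin A, 0.243, 0.272 and 0.258 with BE-43547A1, and 0.391, 0.420 and 0.531 with DMSO. The compounds overlapped in the TIMM8 pair and lay apart from each other in the GRPEL pair. The mean log2 ratio of DNAJC15 over DNAJC19 was 1.57 ± 0.15 with rakicidin A, 1.44 ± 0.09 with BE-43547A1 and 1.10 ± 0.09 with DMSO (SD, n = 3), and that of PMPCA over PMPCB was -1.68 ± 0.06 with rakicidin A, -1.60 ± 0.06 with BE-43547A1 and -1.27 ± 0.02 with DMSO. IMMP1L over IMMP2L overlapped among all groups, and MTX1 had 0.216, 0.236 and 0.218 counts per MTX2 count with rakicidin A, 0.271, 0.285 and 0.269 with BE-43547A1, and 0.156, 0.233 and 0.179 with DMSO. That ratio was highest with BE-43547A1, with no overlap with either other group, and overlapped between rakicidin A and DMSO.

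**Figure D3:**
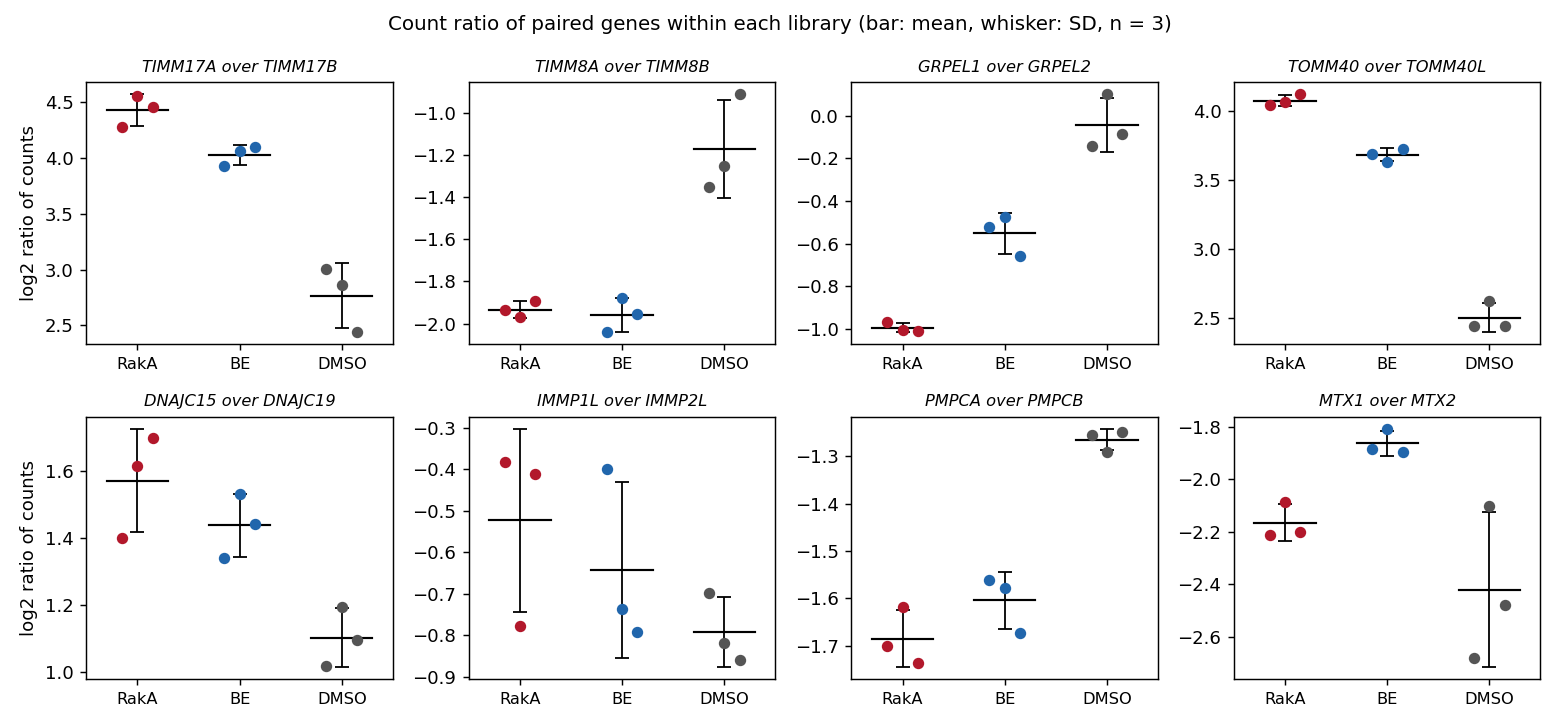
Log2 count ratio (y axis, ranges differ between panels) of 8 pairs of related import genes within each library of rakicidin A (RakA), BE-43547A1 (BE) and DMSO, with bars for means and whiskers for SD, n = 3. TIMM17A over TIMM17B and TOMM40 over TOMM40L are highest with rakicidin A and lowest with DMSO, and IMMP1L over IMMP2L overlaps in all groups.

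Levels of different genes were compared only as CPM per kb of annotated exon. In DMSO TIMM50 was the highest of the import genes at 116 ± 3.12 CPM per kb (SD, n = 3), and IMMP1L the lowest of those with counts at 1.11 ± 0.174. TOMM22 and TIMM10 followed TIMM50 at 56.5 and 53.9 CPM per kb. TIMM23 has no length in the annotation used and was left out. Over the 34 genes with a length, Spearman's rho between log2 fold change and exon length was 0.06 for rakicidin A, -0.09 for BE-43547A1 and 0.26 for the direct comparison, given as a description across genes.

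**Figure D4:**
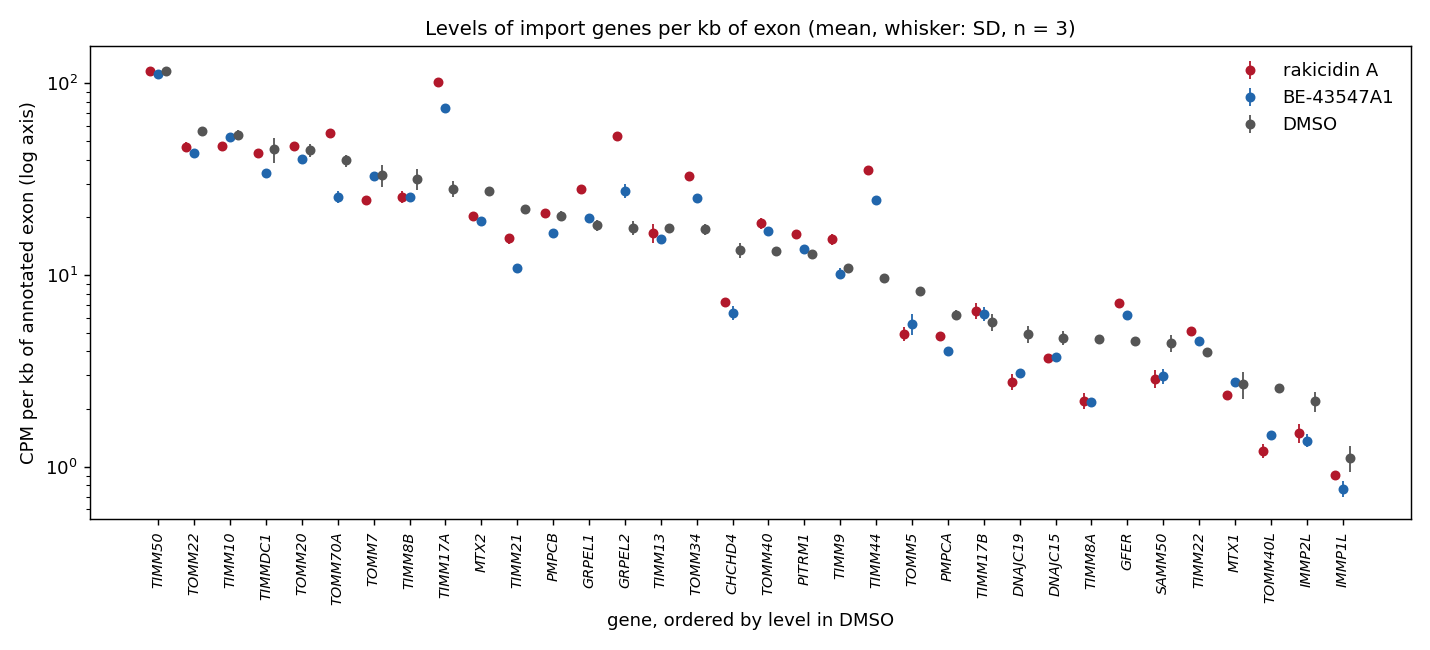
CPM per kb of annotated exon (log y axis) of the import genes, ordered by level in DMSO along the x axis, as means with SD (whiskers, n = 3) for rakicidin A, BE-43547A1 and DMSO. TIMM50 is highest in all 3 groups, and TIMM17A comes next with each of the compounds.

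The compounds were then compared with each other, as 1 pair, at doses that differed slightly (42 nM rakicidin A, 41 nM BE-43547A1). Most import genes that differed were higher with rakicidin A. In edgeR's test 15 were higher, 1 was lower and 19 did not pass, 45.7% called against 46.6% of all features (24.1% higher, 22.5% lower). All rakicidin A libraries lay above all BE-43547A1 libraries in 18 genes and below them in 4, where 57.6% of all features showed no overlap (29.2% above, 28.3% below). Among the features at least as abundant as the lowest import gene, 39.9% were higher and 20.7% lower. The median log2 fold change was 0.18 over the 35 genes, 0.09 over those abundant features and -0.02 over all features. The number of lower genes moved with the processing, to 6 with total counts alone, 4 with GENCODE rows only and 3 with the 6 libraries of the comparison. It was 2 without BE-43547A1 replicate 1 or 3, DMSO replicate 3 or rakicidin A replicate 1.

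The largest difference was that of TOMM70A, higher with rakicidin A by 1.11 ± 0.06 on the log2 scale (edgeR adjusted p = 4.25e-10). GRPEL2 followed at 0.94 ± 0.07 (adjusted p = 4.29e-09) and TIMM9 at 0.59 ± 0.08 (adjusted p = 5.73e-06). TIMM44 (0.52), TIMM21 (0.51), GRPEL1 (0.51), TIMM17A (0.45), TIMM23 (0.39) and TOMM34 (0.37) were higher as well. So were PMPCB (0.35), TIMMDC1 (0.34), PMPCA (0.27), PITRM1 (0.26), TOMM20 (0.22) and GFER (0.21, adjusted p = 0.0318). With total counts alone PMPCA (0.15), TOMM20 (0.098) and GFER (0.089) no longer passed, and GFER also did not pass without BE-43547A1 replicate 1, rakicidin A replicate 1 or rakicidin A replicate 2 (adjusted p = 0.0546 to 0.148). Nor did GFER pass with no filter on low counts or with GENCODE rows only.

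TOMM7 was the gene lower with rakicidin A than with BE-43547A1, at 44.4, 40.7 and 43.8 CPM with rakicidin A against 54.0, 60.0 and 58.6 CPM with BE-43547A1 (log2 -0.42 ± 0.08, edgeR adjusted p = 0.000249). For TIMM8A the difference was 0.02 with a 95% interval of -0.18 to 0.22, for TIMM50 0.06 (-0.05 to 0.17), and for CHCHD4 0.19 (-0.0012 to 0.38), which passed without BE-43547A1 replicate 2 (0.26, edgeR adjusted p = 0.0461). TOMM40L gave -0.26, MTX1 -0.23, TOMM5 -0.17, TIMM10 -0.16 and DNAJC19 -0.15, and each passed as lower with total counts alone. A p that misses the threshold does not show that the compounds act alike on these genes.

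Other genes of import and of related roles were read from fixed lists, chosen with earlier results of these data known. Calls of the genes in these lists were not followed under the alternatives. Small changes among them may therefore depend on the scaling, as those of the import genes did with total counts alone. The first list, of 25 genes tested, also holds genes with other main roles, such as IMMT, CHCHD3, APOO, HSPD1 and HSPE1. Median log2 fold changes of the 25 were -0.04 for rakicidin A and -0.13 for BE-43547A1. Of the 25, 5 were higher and 7 lower with rakicidin A, and 6 were higher and 9 lower with BE-43547A1. That is 48% called with rakicidin A, against 64.7% of all features, and 60% called with BE-43547A1, against 70.4% of all features. HSPA9, the Hsp70 of the motor, had 2227, 2167 and 2239 CPM with rakicidin A, 1526, 1591 and 1696 CPM with BE-43547A1, and 959, 988 and 888 CPM with DMSO. It rose by 1.23 ± 0.06 on the log2 scale with rakicidin A (edgeR adjusted p = 7.91e-13) and by 0.76 ± 0.06 with BE-43547A1 (adjusted p = 6.89e-10). MTCH2, an insertase of the outer membrane, fell by 0.37 with rakicidin A and by 0.66 with BE-43547A1. COX18, which inserts a respiratory chain subunit, fell by 0.64 with rakicidin A and by 0.80 with BE-43547A1. The aminopeptidase XPNPEP3 fell by 0.53 with rakicidin A and by 0.47 with BE-43547A1.

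Substrates of the disulfide relay fell in 14 and rose in 2 of 19 cases with rakicidin A, and fell in 7 and rose in 2 with BE-43547A1, with median log2 fold changes of -0.47 for rakicidin A and -0.11 for BE-43547A1. Called lower were 73.7% of them with rakicidin A, against 32.7% of all features, and 36.8% with BE-43547A1, against 35.1%, and called higher were 10.5% with each compound, against 31.9% of all features with rakicidin A and 35.3% with BE-43547A1. Between the compounds 5 were higher and 6 lower with rakicidin A, where 24.1% of all features were higher and 22.5% lower. As the list was chosen with earlier results known, these shares are a description only. COA5, an assembly factor of cytochrome oxidase, fell by 1.06 with rakicidin A and by 1.34 with BE-43547A1. TRIAP1 fell by 0.79 with rakicidin A and by 1.21 with BE-43547A1, and CHCHD7 by 0.48 with rakicidin A and by 1.03 with BE-43547A1. COX19, which serves copper delivery to cytochrome oxidase, rose by 1.48 ± 0.09 with rakicidin A and by 0.39 ± 0.09 with BE-43547A1, and CHCHD2, named after its values were seen, was the other one to rise (0.29 with rakicidin A, 0.34 with BE-43547A1). Between the compounds COX19 was higher with rakicidin A by 1.08 ± 0.09 (edgeR adjusted p = 1.94e-08).

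Of 15 cytosolic chaperones and quality control factors for precursors, 5 were higher and 5 lower with rakicidin A, and 8 were higher and 2 lower with BE-43547A1, with medians of 0.10 for rakicidin A and 0.15 for BE-43547A1. That is 66.7% called with each compound, against 64.7% of all features with rakicidin A and 70.4% with BE-43547A1. HSPA8, the constitutive Hsp70 that keeps precursors unfolded, fell by 1.64 ± 0.07 on the log2 scale with rakicidin A (edgeR adjusted p = 3.00e-13) and by 0.65 ± 0.07 with BE-43547A1 (adjusted p = 1.33e-07). ATAD1, which pulls misplaced proteins out of the outer membrane, rose by 0.82 with rakicidin A and by 0.49 with BE-43547A1. The cochaperone DNAJB6 rose by 0.64 with rakicidin A and by 0.46 with BE-43547A1, and UBQLN1, which binds membrane precursors, by 0.42 with rakicidin A and by 0.38 with BE-43547A1. Between the compounds HSPA8 was lower with rakicidin A by 0.99 ± 0.07 (adjusted p = 3.78e-09).

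In the annotation used, 23 of the import genes overlap another gene, 20 of them one on the opposite strand. Among those described in full these are TIMM44, TIMM17B, GRPEL2, TOMM34, TOMM70A, TOMM40, TOMM40L, TIMM8B and DNAJC19. TOMM5, TOMM6, SAMM50 and TIMM13 overlap a coding gene on the same strand, whose reads cannot be told apart by strand. Whether counting used the strand is not given in the sources used here, so reads of the overlapping genes may not be separable. Rows of named pseudogenes held counts of their own, equal to 4.59% of the count of TIMM8A, 3.19% of that of TIMM8B and 1.90% of that of GRPEL2. Besides DNAJC19P9, the row of DNAJC19P5 held 8.91% of the count of DNAJC19. Reads that a gene lost to a copy or gained from it were not measured, and copies with other kinds of names were not searched.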

How the data were processed

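Total RNA of 9 libraries was sequenced. The deposited table holds counts of reads or fragments per feature, with no normalization. GRCh37, hg19, TopHat2 and HTSeq are named, per the submitters' processing notes, but software versions, settings and strandedness appear in none of the sources used here. The 5 summary entries that name no gene, 39.0 to 45.4% of feature counts plus entries, were set aside.

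The test was edgeR 4.0.16 under R 4.3.3 (filterByExpr, TMM, quasi-likelihood F test, 1 mean per group over 9 libraries, 6 residual degrees of freedom). Adjustment was by Benjamini-Hochberg over 22353 features, and intervals are at 95%. CPM values are TMM scaled. TMM factors were 0.890 to 0.898 with rakicidin A, 0.963 to 0.989 with BE-43547A1 and 1.14 to 1.15 with DMSO. Exon lengths and overlaps came from GENCODE v29, matched by identifier for 35 of 36 genes, and coordinates are printed only for RefSeq promoters, in GRCh38.p14. The script was tested on simulated data in which only a small share of features changed, so that test cannot speak to the scaling of these libraries. Plots used python 3.11.15 and matplotlib 3.10.9.

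The genes and lists were chosen with earlier results of these data known, and the motifs after the files were read. Genes are given in every library where they passed in a comparison with a log2 change of at least 0.8, or a paralog did. From each other list up to 4 genes with the smallest unadjusted p against DMSO, multiplied over the compounds, were named. Same-numbered libraries of different groups correlated at -0.17 to 0.33 in their deviations from the group means, over 0.1 in 2 of 9 pairs. Libraries with different numbers correlated at -0.41 to 0.29, over 0.1 in 4 of 18 pairs. With 3 libraries per group these values cannot decide whether the numbers pair the libraries. No libraries of a group were alike within counting noise (chi-square per degree of freedom 3.03 to 19.6). Alternatives were DESeq2 1.42.0, limma-voom (limma 3.58.1), RLE factors, no filter, total counts alone, the 6 libraries of a comparison, GENCODE rows only, a replicate block and each library left out.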

Additional observations from a re-analysis of the deposited data

How the results depend on the processing

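Counts of import genes called higher and lower stayed within 1.5 times the reported ones under most alternatives. Exceptions were the genes higher with rakicidin A than with DMSO, 6 in place of 12 with total counts alone, and the genes lower with rakicidin A than with BE-43547A1, 6 with total counts alone, 3 with the 6 libraries of the comparison, 4 with GENCODE rows only, and 2 without BE-43547A1 replicate 1 or 3, DMSO replicate 3 or rakicidin A replicate 1, in place of 1. With 1 library left out, 12 to 13 genes were higher and 14 to 17 lower with rakicidin A than with DMSO, 6 to 7 higher and 17 to 19 lower with BE-43547A1 than with DMSO, and 14 to 17 higher and 1 to 2 lower between the compounds. Whether the replicate numbers pair the libraries is not known. With the number as a block, 12 genes were higher and 15 lower for rakicidin A against DMSO, and 7 higher and 19 lower for BE-43547A1 against DMSO. For rakicidin A against BE-43547A1, 15 were higher and 1 lower, and the block changed no call. Signs turned for genes near 0 and for some that passed. For rakicidin A against DMSO, total counts alone gave TOMM20 -0.28, TIMM50 -0.35 and PMPCB -0.30, all passing, and TIMM17B -0.16 and PITRM1 -0.012. TIMM50 gave -0.0010 with no filter and -0.0011 with GENCODE rows only. For BE-43547A1 against DMSO, total counts alone gave TIMM23 -0.23 and PITRM1 -0.15, both passing, and TIMM22 -0.049, TIMM17B -0.092, GRPEL1 -0.11 and MTX1 -0.20. TOMM7 gave 0.0051 with no filter and 0.025 with GENCODE rows only. For rakicidin A against BE-43547A1, total counts alone gave TIMM13 -0.015, TIMM17B -0.073, TIMM50 -0.062, TOMM22 -0.028, MTX2 -0.049 and TIMM8A -0.098. TIMM8A gave -0.0015 with no filter and -0.020 with GENCODE rows only, and TIMM8B 0.0039 with RLE factors and 0.0044 with DESeq2. With 1 library left out, signs turned within these ranges. Against DMSO, rakicidin A gave TIMM50 -0.011 to 0.044, TIMMDC1 -0.18 to 0.032 and TIMM13 -0.12 to 0.025, and BE-43547A1 gave TOMM7 -0.11 to 0.082, TIMM23 -0.039 to 0.073, TIMM10 -0.095 to 0.014 and MTX1 -0.072 to 0.16. Between the compounds the ranges were -0.023 to 0.12 for TIMM17B, -0.045 to 0.086 for TIMM8A, -0.051 to 0.041 for TIMM8B, -0.075 to 0.0078 for DNAJC15 and -0.12 to 0.032 for SAMM50. The cause was not tested. With BE-43547A1 the calls of TOMM20 and TIMM22 were lost with DESeq2 (adjusted p = 0.0570 and 0.0523). Standard errors were largest for IMMP1L, IMMP2L, MTX1 and TOMM40L, whose levels are low.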

Other observations

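TIMM50 lay at percentile 98.3 of mean log CPM per kb among 17595 GENCODE features tested that have an exon length in GENCODE v29. Its coding neighbours in the order of that annotation were looked up after its level was seen. Of 20 neighbours 14 were tested, with a median percentile of 94.5, and 6 of them lay in the top 5%: SAMD4B at 95.6, PAF1 at 99.8, MED29 at 98.7, ZFP36 at 97.7, RPS16 at 97.3 and SUPT5H at 99.5. These 6 all lie on the same side of TIMM50. On that side LRFN1 at 9.36, IFNL1 at 14.0 and GMFG at 15.5 were the lowest neighbours. The ranking was not limited to coding genes, so the median of the coding neighbours has no matching baseline.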
